A study of Mus musculus with 6 samples.

Results

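The 10 Krüppel-like factor (KLF) genes Klf2, Klf3, Klf4, Klf6, Klf7, Klf9, Klf10, Klf11, Klf13 and Klf16 were followed through RNA sequencing of MOSE cells, which are mouse cells of the ovarian surface epithelium. They were taken by symbol from the 25006 genes of the count tables, and 9 of the 10 passed the filter on low counts, which kept 12313 genes. The series compares 2 stable lines, with 3 libraries each: MOSE-PAX8, which overexpresses the paired-box transcription factor PAX8, and MOSE-NEO, the reference line. Both lines were kept under G418 at 0.05 mg/mL, so the selection drug is shared by all 6 libraries. Each group is 1 stable line, the promoter that drives PAX8 is not given in the sources used here, and a difference between the lines cannot be told apart from a difference between the cells each line was grown from. The labels do not state whether separate cultures gave the 3 libraries of each line; the p-values therefore describe the spread among the sequenced libraries, and that spread may be technical.

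KLF proteins bind GC-rich and CACCC-type DNA through C2H2 zinc fingers at their carboxyl end, and differ in the amino-terminal region, through which they recruit other proteins. By these partners the family is commonly sorted into a group that binds the SIN3 corepressor (here Klf9, Klf10, Klf11, Klf13 and Klf16), a group that binds the CtBP corepressors (here Klf3) and a group that often activates transcription (here Klf2, Klf4, Klf6 and Klf7). In epithelia, family members are known for roles in proliferation, differentiation and responses to steroid hormones and TGF-beta. In bulk RNA, fewer cells that express a gene and less RNA per cell cannot be told apart.

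Of the 9 tested KLF genes, Klf13 and Klf16 passed the test, and both were higher in MOSE-PAX8. Klf13 was 1.81-fold higher and Klf16 1.26-fold higher. The other 7 (Klf3, Klf4, Klf6, Klf7, Klf9, Klf10 and Klf11) did not pass, and no member was called lower. Klf2 had 0 counts in all 6 libraries. The share of members called, 22.2%, stands beside 33.9% of all tested genes that passed (4178 genes), 17.9% called higher (2199) and 16.1% called lower (1979). The median log2 fold change was 0.07 over the 9 members and 0.01 over all tested genes. No test of the difference between these shares was made. Tests here are edgeR's quasi-likelihood test with Benjamini-Hochberg adjustment over all tested genes, an adjusted p under 0.05 makes a call, and a log2 fold change above 0 means a higher level in MOSE-PAX8.

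Library totals ran from 23623762 to 36367825 counts, with 14397 to 15578 genes detected. The overexpressed gene, Pax8, was counted 0, 1 and 1 times in MOSE-NEO and 2570, 2973 and 3544 times in MOSE-PAX8, which matches the labels. MOSE-NEO 1 and MOSE-PAX8 2 stood apart from the other 4 libraries in the share of counts in lincRNA genes, 0.317% and 0.33% against 0.146% to 0.195%. All 10 markers of ovarian surface epithelium and mesothelium passed the filter on low counts, with a summed level of 10987 to 12164 CPM (counts scaled to the library total with TMM factors) in MOSE-NEO and 6461 to 7513 CPM in MOSE-PAX8. Of the 10, 5 were called lower (Krt7, Krt8, Wt1, Upk3b and Podxl) and 1 higher (Nr2f2), 60% beside 33.9% of all tested genes. The keratins Krt8 and Krt19, which also mark this epithelium, lay near the detection limit. They were at 0.788 and 0.278 CPM in MOSE-NEO and 0.317 and 0.405 CPM in MOSE-PAX8. None of the 7 endothelial markers passed the filter (summed 0.348 to 1.06 and 0.22 to 0.555 CPM, with Cdh5 at 0 counts). Of 7 leukocyte markers, 3 passed (summed 9.09 to 16.9 and 8.89 to 10.2 CPM); 1 was called higher, Ptprc, with 0, 0 and 1 counts in MOSE-NEO and 60, 49 and 87 in MOSE-PAX8, and 1 lower, Csf1r, with 423, 164 and 334 against 192, 115 and 121 counts. Of 7 granulosa and theca markers, 3 passed (summed 442 to 541 and 374 to 414 CPM, with Fshr and Cyp19a1 at 0 counts). Foxl2 was called higher, with 0, 1 and 0 against 57, 47 and 78 counts, and Inha and Star were called lower. Of 7 stromal fibroblast markers, 4 passed, and the list summed to 14521 to 17306 CPM in MOSE-NEO and 7212 to 8504 CPM in MOSE-PAX8. Of these, Col1a2 (2.58-fold) and Thy1 (18.7-fold) were called lower, and Dcn and Col1a1 were not called. Pdgfra, Lum and Postn had at most 12 counts over a line. The part of these levels in the KLF values was not tested.

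**Figure D1:**
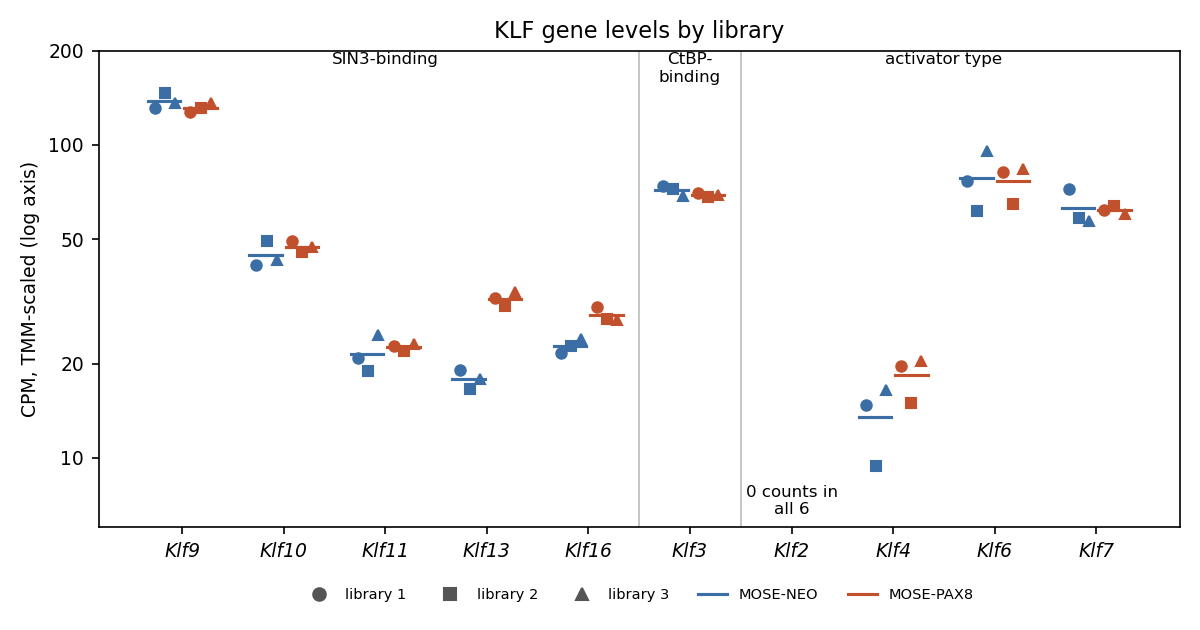
Level of each KLF gene in every library, in CPM (TMM-scaled) on a log axis, with the genes sorted by the cofactor group of their proteins; points are libraries (shape gives the library number, colour the line) and short lines are the mean of the 3 libraries of a line. The points of the lines are separated for Klf13 (16.6 to 19.1 against 30.6 to 33.8 CPM) and Klf16 (21.7 to 23.9 against 27.6 to 30.4 CPM). They overlap for the other 7 tested genes. Over all tested genes, the libraries of the lines were separated in either direction for 47.6%. Klf2 had 0 counts and is marked by text, since a log axis has no 0.

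Promoter sequence was matched by symbol for 8 of the 10 members in the RefSeq table of GRCm38.p6, the build that is also called mm10; Klf10 and Klf16 had no entry. The windows are the 250 bases before the RefSeq start site. GENCODE places some starts elsewhere: 29 bases of the window of Klf2, 7 of Klf6, 133 of Klf3, 97 of Klf11 and all 250 of Klf7 lie inside the GENCODE gene, and none of Klf4, Klf9 and Klf13. They are shown for Klf13, the member with the clearest change, for Klf6, whose window held the core of the paired-domain recognition sequence, and for Klf2, which had no counts; all are printed 5′ to 3′ on the strand of the gene. Capitals mark 3 motifs, on either strand. The first is the GC box, with the letters GGGCGG. The second is the box known from globin promoters, with the letters CCACCC. The last is the paired-domain core, with the letters GTCACGC. In Klf13 the longest run of capitals holds matches to the first and the second motif that overlap.
Klf13, chr7:63938916-63939165, minus strand: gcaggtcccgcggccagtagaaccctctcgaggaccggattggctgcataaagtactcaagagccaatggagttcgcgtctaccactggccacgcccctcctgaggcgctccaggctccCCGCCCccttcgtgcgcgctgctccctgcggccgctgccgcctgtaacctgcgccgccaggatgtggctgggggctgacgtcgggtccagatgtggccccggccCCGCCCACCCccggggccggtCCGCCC
Klf6, chr13:5861239-5861488, plus strand: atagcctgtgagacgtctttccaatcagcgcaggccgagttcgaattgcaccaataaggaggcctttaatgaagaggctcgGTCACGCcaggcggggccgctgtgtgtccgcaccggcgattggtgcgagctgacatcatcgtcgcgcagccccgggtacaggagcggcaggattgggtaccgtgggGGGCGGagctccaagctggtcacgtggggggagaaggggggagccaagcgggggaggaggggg
Klf2, chr8:72318812-72319061, plus strand: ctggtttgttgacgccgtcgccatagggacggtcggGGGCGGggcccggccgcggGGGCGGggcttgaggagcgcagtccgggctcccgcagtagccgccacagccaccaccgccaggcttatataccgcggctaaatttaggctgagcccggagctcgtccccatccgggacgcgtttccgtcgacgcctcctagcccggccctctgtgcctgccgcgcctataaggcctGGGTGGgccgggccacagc

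GC boxes, to which KLF and SP proteins themselves bind, were found in 7 of the 8 windows, with 3 matches in Klf13, 1 in Klf6 and 2 in Klf2. The windows of Klf3, Klf4 and Klf11 held 6, 4 and 4 matches, that of Klf7 held 1 and that of Klf9 held none. Over 32851 promoter windows of the same length, 32.7% held a GC box. The share of G and C in the 8 windows ran from 59.2% in Klf7 to 78.4% in Klf3. The shares over all windows given here were not matched for it. The globin-type box stood in Klf3 and Klf7 (3 matches each) and in Klf2 and Klf13 (1 each), against 28.1% of all windows. The paired-domain core occurred 169 bases before the start of Klf6, on the plus strand, and in no other of the 8 windows; 1.78% of all windows held it. Klf6 did not pass the test, and the window of Klf13 held no match. E-boxes (CACGTG, in 6.02% of all windows) stood in Klf4, Klf6 and Klf11, 1 each. Klf9 alone held an AP-1 site (TGANTCA, 6.75% of windows) and a FOXO site (TGTTTAC, 3.17%), the FOXO site 100 bases before the start. TATA boxes (TATAAA, 12.4%) and cyclic AMP response elements (TGACGTCA, 1.55%) occurred in none of the 8 windows. All motifs were searched on both strands, and a match describes letters in the window only.

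Among the SIN3-binding members, Klf13 differed most between the lines. Klf13, also known for a role in lymphocyte and heart gene expression, lies on chromosome 7 (63886351 to 63938915, minus strand). Its counts were 600, 382 and 540 in MOSE-NEO and 1188, 973 and 1097 in MOSE-PAX8. In CPM this was 19.1, 16.6 and 17.9 (mean 17.9 ± 1.23 SD, n = 3) against 32.5, 30.6 and 33.8 (32.3 ± 1.62). Every MOSE-PAX8 library lay above every MOSE-NEO library, as was the case in either direction for 47.6% of all tested genes (5856). The log2 fold change was 0.85 ± 0.09 (SE), with a 95% interval of 0.65 to 1.05, which is 1.57-fold to 2.07-fold, and an adjusted p of 0.000168 in edgeR's quasi-likelihood test. Its size exceeded that of 87.7% of the tested genes, and the median size among called genes was 0.59. An antisense gene, E030018B13Rik, overlaps the Klf13 locus without sharing exon bases, and had 1 count in 1 of the 6 libraries.

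Among the genes around Klf13, more were called higher than lower. The median log2 fold change of the tested genes of chromosome 7 was 0.27, and that of the 50 tested genes nearest to Klf13, the farthest 14.9 Mb away, was 0.21. Of those 50, 19 were called higher and 4 lower, and 7 had a larger log2 fold change than Klf13. Over all tested genes, 17.9% were called higher and 16.1% lower. Within 1 Mb, 4 of 6 tested genes were called higher and 0 lower, with a median of 0.44. After the median of the chromosome was taken off every gene, Klf13 stood at 0.59 (adjusted p 0.00131, edgeR), and after the local median was taken off, an alternative chosen after seeing the data, at 0.64 (0.000886). Klf13 was called higher in all 17 alternative settings that were run, between 0.59 and 0.93.

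Klf16, the other member that passed, encodes a protein known to act on dopamine receptor promoters, and lies on chromosome 10 (80567124 to 80577321, minus strand). Its level was 21.7, 22.7 and 23.9 CPM in MOSE-NEO (22.8 ± 1.10 SD, n = 3) and 30.4, 27.8 and 27.6 CPM in MOSE-PAX8 (28.6 ± 1.57). The lines did not overlap, as was the case in either direction for 47.6% of all tested genes. The nearest libraries were MOSE-NEO 3 and MOSE-PAX8 3. The log2 fold change was 0.33 ± 0.08 (SE), with a 95% interval of 0.14 to 0.52 (1.10-fold to 1.43-fold) and an adjusted p of 0.0155 in edgeR's quasi-likelihood test. The call was lost without MOSE-NEO 1 (0.29, adjusted p 0.0534), without MOSE-NEO 2 (0.32, 0.0547), without MOSE-PAX8 1 (0.28, 0.0640) and without both lincRNA-rich libraries (0.30, 0.0634), and with the replicate number as a block it was kept (0.33, 0.0360). It did not pass a test against a fold of 1.5.

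Klf16 lay in a stretch of chromosome 10 in which most tested genes were higher in MOSE-PAX8. Of its 50 nearest tested genes, all starting within 0.568 Mb of it, 47 had a log2 fold change above 0, 33 were called higher and 1 lower. Over all tested genes, 17.9% were called higher and 16.1% lower. The median of these 50 was 0.44, above the 0.33 of Klf16, and 33 of them had a larger log2 fold change than Klf16. The local median was 0.49 over 20 neighbours and 0.36 over 100, and against the MOSE-NEO mean it was 0.37, 0.50 and 0.37 in the 3 MOSE-PAX8 libraries. The higher values were local: within 1 Mb, 49 of 88 tested genes were called higher and 4 lower, with a median of 0.37. Between 1 and 5 Mb, 9 of 78 were called higher and 12 lower, with a median of -0.02. The bands were set by distance and do not place the ends of the stretch. The median of all of chromosome 10 was -0.03. With the local median taken off, Klf16 had a log2 fold change of -0.11 (adjusted p 0.362, edgeR), so it was not higher than its neighbours. With the median of the chromosome taken off it was 0.36 (0.0124). What sets the level of this stretch was not tested.

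**Figure D2:**
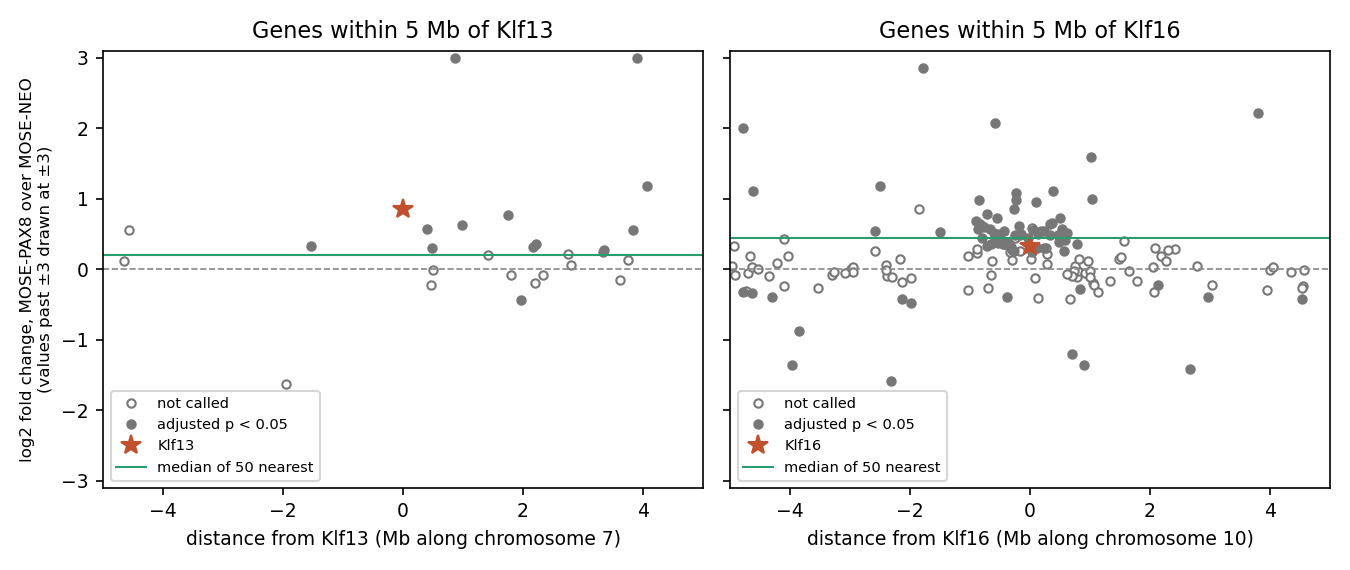
Log2 fold change (MOSE-PAX8 over MOSE-NEO) of tested genes within 5 Mb of Klf13 (left) and Klf16 (right) against their distance in Mb; the star is the member, filled points are called genes, the dashed line is 0 and the solid line is the median of the 50 nearest tested genes. The genes close to Klf16 lie mostly above 0, with a local median of 0.44 above the member's 0.33, whereas Klf13 at 0.85 lies above its local median of 0.21.

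Klf9, a steroid- and thyroid-hormone-responsive factor, was the most abundant member. Its level was 131, 147 and 136 CPM in MOSE-NEO and 127, 131 and 137 CPM in MOSE-PAX8, means of 138 ± 7.93 and 132 ± 4.65 (SD, n = 3). The lines overlapped, and the log2 fold change was -0.07 ± 0.07 (SE; 95% interval -0.24 to 0.10; adjusted p 0.535, edgeR). Chromosome 19, which carries Klf9, had a median log2 fold change of 0.17, and relative to that median Klf9 was lower, at -0.23 (adjusted p 0.0451). Relative to its 50 nearest tested genes, whose median was 0.06, it was at -0.13 and did not pass (0.246).

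The TGF-beta-inducible pair Klf10 and Klf11 (also called TIEG1 and TIEG2) did not pass. Klf10, on chromosome 15, had 41.3, 49.4 and 42.9 CPM in MOSE-NEO and 49.4, 45.5 and 47.1 CPM in MOSE-PAX8, and a log2 fold change of 0.09 ± 0.09 (SE; 95% interval -0.11 to 0.29; adjusted p 0.487, edgeR). Klf11, on chromosome 12, had 20.8, 19.0 and 24.6 CPM against 22.8, 21.9 and 23.2 CPM, and 0.07 ± 0.11 (-0.17 to 0.31; 0.642). The libraries of both genes overlapped between the lines, and the spread in MOSE-NEO, 4.28 and 2.88 CPM, was wider than the difference of the means. Of the 50 tested genes nearest to Klf11, 21 were called higher and 5 lower. Over all tested genes the shares were 17.9% and 16.1%. The median of those 50 was 0.26. With that median taken off Klf11 was at -0.19, and with the chromosome median of 0.19 taken off at -0.12, so its direction turned, without a call.

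Klf3, the CtBP-binding repressor that also limits adipocyte and erythroid genes, had the smallest SD relative to its mean among the tested members, in both lines. It had 73.9, 72.4 and 68.7 CPM in MOSE-NEO and 70.3, 68.4 and 69.4 CPM in MOSE-PAX8, with a log2 fold change of -0.05 ± 0.07 (SE; 95% interval -0.20 to 0.11; adjusted p 0.636, edgeR). The interval lies within a 1.5-fold change in either direction, as do those of Klf6, Klf7, Klf9, Klf10, Klf11 and Klf16. Of the 50-base stretches of its transcripts, 3.48% also occurred in transcripts of other genes.

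Among the activator-type members, Klf4, a factor of epithelial differentiation and of reprogramming to pluripotency, was higher in MOSE-PAX8 without passing the test. Its level was 14.7, 9.43 and 16.5 CPM in MOSE-NEO (13.5 ± 3.67 SD, n = 3) and 19.7, 14.99 and 20.4 CPM in MOSE-PAX8 (18.4 ± 2.94). The lowest MOSE-PAX8 library lay below the highest MOSE-NEO library. The log2 fold change was 0.43 ± 0.20 (SE), with a 95% interval of -0.03 to 0.89, which runs from 0.982-fold to 1.85-fold, and an adjusted p of 0.135 in edgeR's quasi-likelihood test. With the replicate number as a block it passed (0.46, adjusted p 0.0167), the only 1 of 17 settings in which it did. The estimate rested in part on MOSE-NEO 2: without it the log2 fold change was 0.22 (0.320). Without MOSE-NEO 3 it was 0.60 (0.0593).

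Klf6, an immediate-early factor of wounding and of fibrotic responses, and Klf4 varied alike among the libraries. Klf6 had 76.9, 61.6 and 95.9 CPM in MOSE-NEO and 81.8, 64.8 and 83.9 CPM in MOSE-PAX8, and a log2 fold change of -0.02 ± 0.16 (SE; 95% interval -0.39 to 0.34; adjusted p 0.925, edgeR). On the scale of log2(CPM + 1), Klf6 deviated from the mean of its line by -0.00, -0.31 and 0.31 in MOSE-NEO and by 0.10, -0.23 and 0.13 in MOSE-PAX8, and Klf4 by 0.15, -0.45 and 0.30 and by 0.11, -0.26 and 0.15. Both genes were thus lowest in library 2 of each line. So were Klf11 (-0.16 in MOSE-NEO 2 and -0.04 in MOSE-PAX8 2) and Klf13 (-0.10 and -0.08), by smaller amounts. MOSE-PAX8 2 is 1 of the lincRNA-rich libraries and MOSE-NEO 2 is not.

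Klf7, a factor known from neurons and from adipose tissue, had 72.2, 58.5 and 57.3 CPM in MOSE-NEO and 62.1, 63.7 and 60.3 CPM in MOSE-PAX8. The log2 fold change was -0.01 ± 0.10 (SE; 95% interval -0.24 to 0.21; adjusted p 0.927, edgeR). MOSE-NEO 1 was the highest library and the other 5 lay close together. The annotated antisense lincRNA Gm26649 overlaps 3196 exon bases of Klf7, and 38.2% of the 50-base stretches of Klf7 transcripts also occur in that gene. Gm26649 was not among the counted genes. The strand setting of the counting is not given in the sources used here. Whether reads of Gm26649 over the shared bases were counted for Klf7 therefore cannot be told.

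Klf2, known above all from endothelium and T cells, where laminar flow and the MEK5-ERK5-MEF2 pathway induce it, had 0 counts in each of the 6 libraries. A count of 0 allows a level of up to 0.0820 to 0.130 CPM (TMM-scaled), depending on the library (3 counts, for counting error only). None of the 1798 stretches of 50 bases in its transcripts occurs in another annotated transcript. Whether the counting or a true absence sets the 0 was not tested.

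**Figure D3:**
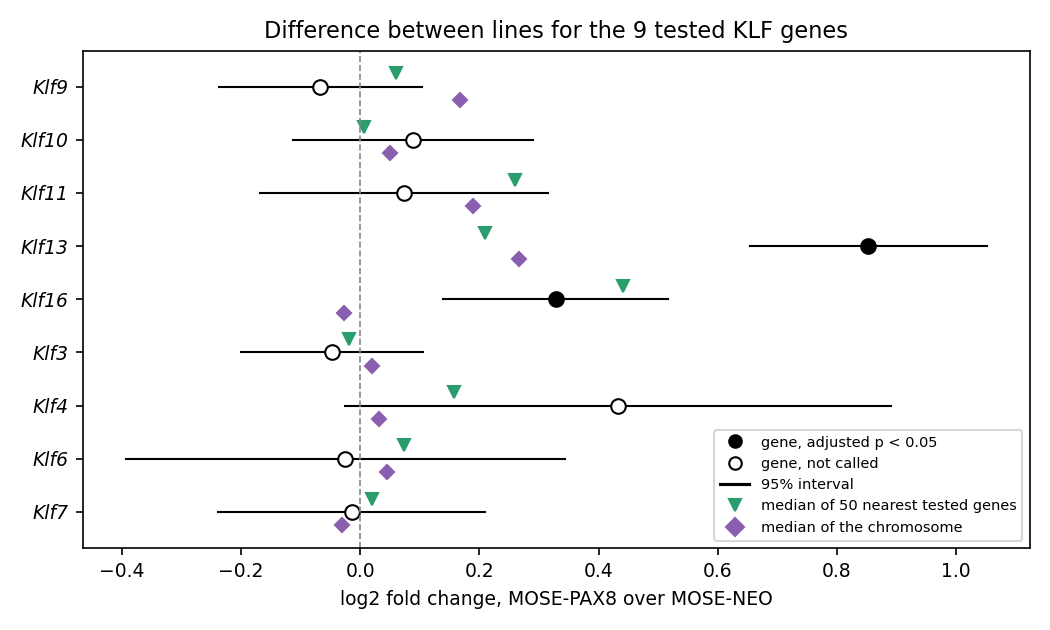
Log2 fold change (MOSE-PAX8 over MOSE-NEO) of the 9 tested KLF genes as circles, filled where called, with the 95% interval as a line; the triangle is the median log2 fold change of the 50 nearest tested genes and the diamond that of the chromosome. Klf13 (0.85) lies right of both its medians (0.21 and 0.27), and Klf16 (0.33) lies left of its local median (0.44) and right of that of its chromosome (-0.03).

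Levels of different genes were compared per length, in FPKM over the merged exons of each gene. In MOSE-NEO the order was Klf9 (28.6 ± 1.65 FPKM, SD, n = 3), Klf6 (17.8 ± 3.91), Klf10 (10.7 ± 1.02), Klf16 (8.51 ± 0.413), Klf7 (7.71 ± 1.02), Klf3 (6.37 ± 0.240), Klf11 (4.95 ± 0.663), Klf4 (4.44 ± 1.202) and Klf13 (2.37 ± 0.163). The ranges of the libraries overlapped for the neighbours Klf16 and Klf7 and for Klf11 and Klf4, and for no other neighbours. In MOSE-PAX8 the order was Klf9 (27.3 ± 0.966 FPKM), Klf6 (17.5 ± 2.39), Klf10 (11.3 ± 0.467), Klf16 (10.7 ± 0.587), Klf7 (7.63 ± 0.212), Klf3 (6.17 ± 0.0852), Klf4 (6.02 ± 0.963), Klf11 (5.21 ± 0.150) and Klf13 (4.29 ± 0.216). Here Klf10 overlapped with Klf16, Klf3 with Klf4, and Klf4 with Klf11. Klf13 was thus the lowest tested member in both lines, also after its rise. Over the 6 libraries, Klf9 lay above 85.0% of the tested genes and Klf13 above 32.2%.

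The summed level of the 10 members was 90.3, 88.1 and 95.9 FPKM in MOSE-NEO and 98.2, 91.2 and 99.1 FPKM in MOSE-PAX8, and the lines overlapped. Within that sum, the share of Klf13 went from 2.60% (2.48% to 2.80% over the libraries) to 4.46% (4.39% to 4.53%), and that of Klf16 from 9.31% to 11.1%. Klf9 made up 31.4% and 28.5%. These levels depend on the length used: with the longest transcript in place of the merged exons, the mean over the 6 libraries moved from 6.27 to 13.5 FPKM for Klf3, from 27.99 to 30.04 for Klf9, from 11.0 to 15.1 for Klf10 and from 3.33 to 3.92 for Klf13. With that length, Klf3 came directly after Klf10 in both lines, while Klf9, Klf6 and Klf10 kept the highest places and Klf13 the lowest.

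**Figure D4:**
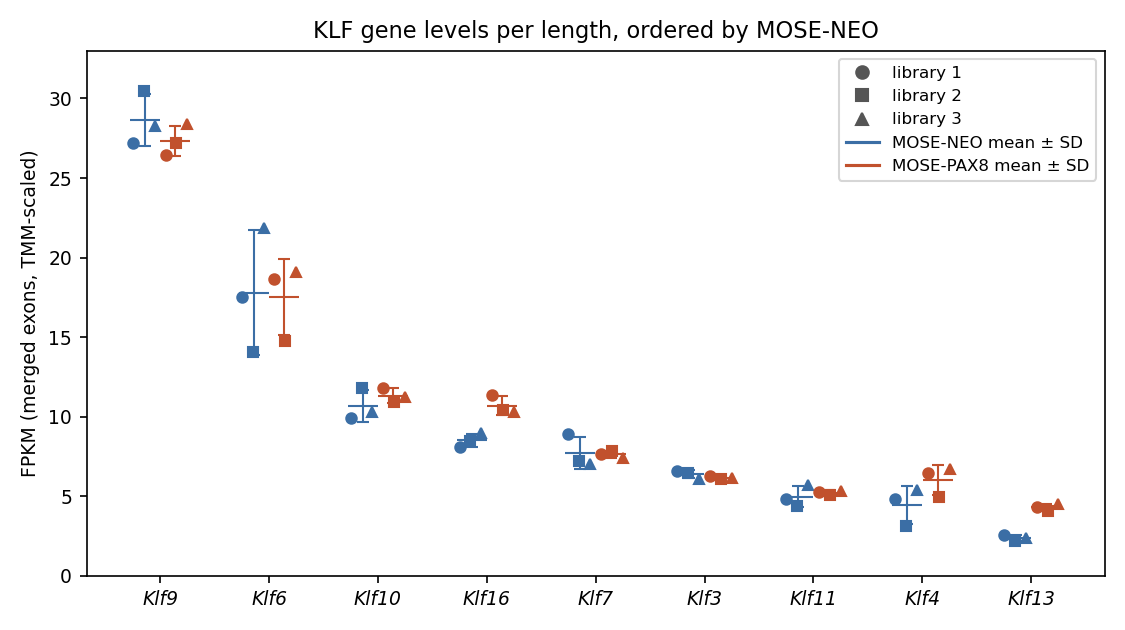
Level per length of the 9 tested KLF genes in FPKM over merged exons, on a linear axis from 0 and ordered by the MOSE-NEO mean; points are libraries, and bars give the mean ± SD of the 3 libraries of a line. Klf9 (28.6 and 27.3 FPKM) and Klf6 (17.8 and 17.5 FPKM) lie highest, and Klf13 lowest (2.37 and 4.29 FPKM).

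The counts of the members do not draw on common long sequence: no stretch of 50 bases was shared between transcripts of any pair of them. The 3 longest shared runs that are coding in both genes are shown, as the places where the members are most alike:
Klf6 and Klf7: gacaggtgtttctccaggtctgacca
Klf11 and Klf16: ggctgtgacaagaagttcgc
Klf2 and Klf7: cacacaggtgagaagcctta
The first is 26 bases long and the others 20 bases. They come from the GENCODE M21 transcripts.

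Of the 7 remaining KLF genes, 2 were tested and both were called lower, as were 16.1% of all tested genes. Klf5, a factor of epithelial proliferation, fell from 12.0 ± 1.34 to 7.99 ± 0.911 CPM (log2 fold change -0.59 ± 0.13 SE, adjusted p 0.0102, edgeR). Klf12, a CtBP-binding repressor, fell from 15.6 ± 1.75 to 8.68 ± 1.21 CPM (-0.84 ± 0.14, 0.00193). Both genes lie on chromosome 14, and with the chromosome median taken off neither passed (-0.16, adjusted p 0.439, for Klf5, and -0.41, 0.0540, for Klf12). With the local median taken off, Klf12 passed (-0.45, 0.0399) and Klf5 did not (-0.19, 0.350), nor did Klf5 pass without both lincRNA-rich libraries. Klf1, Klf8, Klf14, Klf15 and Klf17 had at most 12 counts summed over the libraries of a line.

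Of the 9 SP genes, whose proteins compete with KLF proteins for GC boxes, 5 were tested. Among them 1 was called higher and 1 lower, with a median log2 fold change of -0.07. The share called was 40%, beside 33.9% of all tested genes. Sp4 rose 1.61-fold (adjusted p 0.00104, edgeR), from 12.96, 14.8 and 12.2 CPM to 22.4, 20.8 and 20.8 CPM. Sp9 was 1.87-fold lower (0.0451), and lost its call in 13 of 16 settings. Of 13 KLF corepressor and coactivator genes, all tested, 1 was called higher and 1 lower, with a median of -0.02. Here the share called was 15.4%. Ctbp2, the corepressor bound by KLF3 and KLF12, rose 1.40-fold (37.8 to 52.8 CPM, adjusted p 0.00297), on the same chromosome as Klf13. It lost its call with the chromosome median taken off (0.22, 0.0958) and with the local median taken off (0.23, 0.0809). Hdac3, a histone deacetylase, was 1.17-fold lower (0.0423) and lost its call in 9 of 17 settings. The genes of Sin3a and Sin3b, scaffold of the corepressor bound by KLF13 and KLF16, were not called.

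Of 8 genes for the turnover of KLF proteins, all tested, 1 was called higher and 1 lower. The share called was 25%, beside 33.9% of all tested genes, and the median log2 fold change was -0.02. The ubiquitin ligase gene Smurf1 rose 1.33-fold (adjusted p 0.00616, edgeR). Fbxw7, the substrate receptor of another ubiquitin ligase, was 1.32-fold lower (0.00456), but stood at 0.10 (0.364) with the local median of its part of chromosome 3 taken off. Of 13 upstream regulators of KLF genes, 12 were tested, 3 were called higher and 2 lower, with a median of 0.02. Here the share called was 41.7%. Mef2c, a MADS-box activator of Klf2 and Klf4 in endothelium, rose 9.23-fold, from 0.143 to 1.43 CPM (13 against 145 counts over the line, adjusted p 0.00103). Mef2d fell 1.42-fold (0.000932), and was at -0.02 (0.841) with its local median taken off. Mef2a (1.21-fold higher, 0.0179) and Foxo4 (1.21-fold lower, 0.0456) lost their calls in 7 and 9 of 17 settings. The glucocorticoid receptor gene Nr3c1, named after its values were seen, was 1.22-fold higher (0.0206) and lost its call in 7.

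Of 18 genes reported elsewhere as KLF targets, 15 were tested, 2 were called higher and 3 lower. The share called, 33.3%, was close to the 33.9% of all tested genes, and the median log2 fold change was -0.05. Cdkn1a, the gene of the cell cycle inhibitor p21, fell 4.29-fold. Thbd, the thrombomodulin gene known as a target of KLF2 and KLF4, fell 1.89-fold (adjusted p 0.000159, edgeR), from 258, 293 and 287 CPM to 162, 147 and 135 CPM. Klf2 had 0 counts in these libraries, and what sets the level of Thbd was not tested. Ccne1, the cyclin E1 gene, was 1.39-fold higher (0.0151) and lost its call in 5 of 17 settings. Named after its values were seen, Tgfbr3 was 1.76-fold lower (0.00297).

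Klf4, Klf6 and Klf10 are themselves induced with immediate early genes in many cells, and Klf9 with glucocorticoid-responsive genes, so both lists are given beside them. Of 16 immediate early genes, 15 were tested, 8 were called higher (Egr1, Egr2, Myc, Fos, Fosb, Junb, Srf and Ier2) and 1 lower (Btg2). The share called was 60%, beside 33.9% of all tested genes, and the median log2 fold change was 0.56. Egr1, a zinc-finger factor that also binds GC-rich DNA, rose 8.37-fold, from 6.89, 7.999 and 5.41 CPM to 45.7, 70.2 and 53.4 CPM. Ier2 rose 3.16-fold, and Btg2, an antiproliferative gene, fell 1.62-fold. Over the same libraries, the log2 fold changes of Klf4, Klf6 and Klf10 were 0.43, -0.02 and 0.09, with no call; the difference between them and the list was not tested. Of the 8 glucocorticoid-responsive genes, all tested, 4 were called higher and 3 lower, with a median of 0.33. Here the share called was 87.5%. Fkbp5, a cochaperone of the receptor, rose 2.01-fold and Errfi1, an inhibitor of EGF receptor signalling, 2.17-fold, while Zbtb16 was 3.13-fold and Dusp1 1.43-fold lower. Beside these, Klf9 had -0.07.

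**Figure D5:**
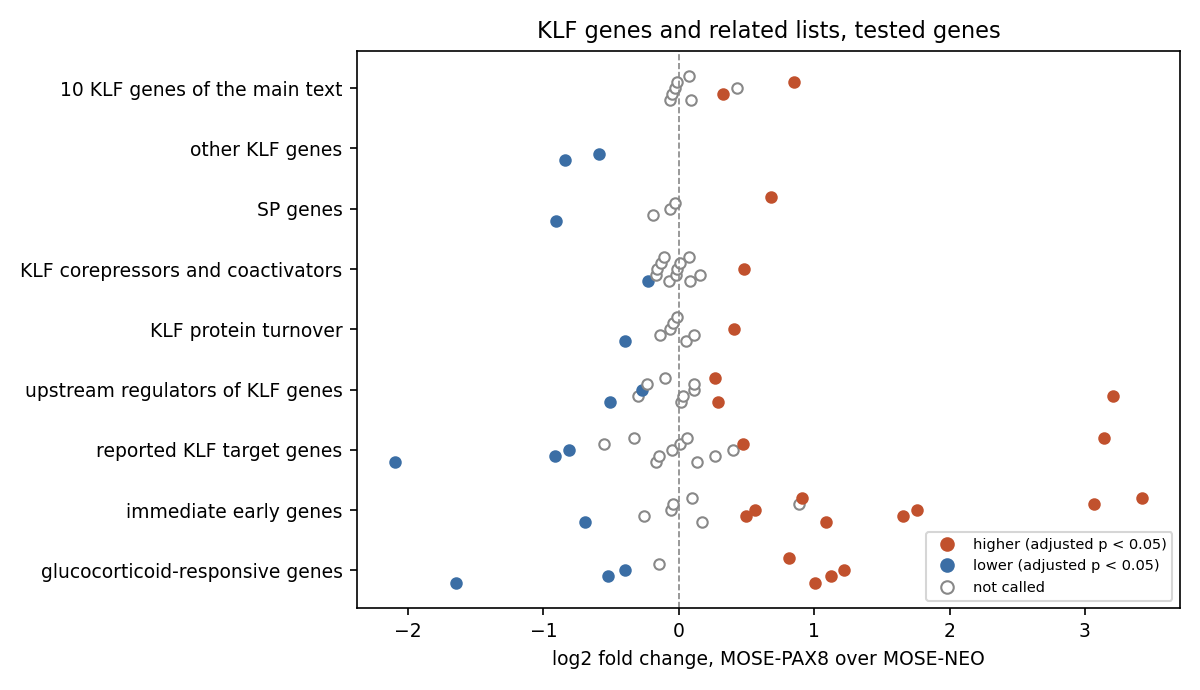
Log2 fold change (MOSE-PAX8 over MOSE-NEO) of each tested gene among the 10 KLF genes and in the related lists, 1 row per list; points are genes, coloured by direction where called and open where not, and their vertical scatter within a row has no meaning. Of the 9 tested KLF genes, 2 are coloured as higher and none as lower (median 0.07, with Klf13 farthest right at 0.85). Of the 15 tested immediate early genes, 8 are coloured as higher (median 0.56). Over all tested genes, 17.9% were called higher and 16.1% lower.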

How the data were processed

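Counts per gene were deposited by the authors as 1 table per library, whole numbers for 25006 Ensembl identifiers, of which 24991 matched GENCODE M21 for names and mm10 coordinates (counted from 1). The submitters' processing notes name cutadapt 1.13, STAR, HTSeq 0.6.1p1, DESeq2 and mm10. No source used here gives the annotation, the strand setting or the handling of multiply aligned reads.

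MOSE-PAX8 was compared with MOSE-NEO on all 12313 genes kept by filterByExpr, with edgeR 4.0.16 (quasi-likelihood test, TMM factors, Benjamini-Hochberg adjustment) in R 4.3.3, and the fit was tested on simulated data. CPM and FPKM were computed from the TMM-scaled counts. The members and lists were chosen with earlier results of these data known. All 10 members were named, and from each list up to 2 called genes per direction with the smallest adjusted p, with the other KLF genes all named. Some genes that this rule selects are not reported here. The labels do not state that the library numbers mark shared cultures, so the numbers were not taken as pairs. The deviations of same-numbered libraries from the means of their lines correlated across genes at -0.487, 0.0761 and 0.504.

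Alternatives were DESeq2 1.42.0, limma-voom (limma 3.58.1), factors by RLE or upper quartile, no filter on low counts, 1 CPM in 3 libraries, a replicate block, each library left out, both lincRNA-rich libraries left out, a test against a 1.5-fold change and the chromosome median removed; removal of the local median was chosen after seeing the data.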

Additional observations from a re-analysis of the deposited data

How the results depend on the processing

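Klf13 was called higher under all 17 alternatives, and Klf3 and Klf10 kept their direction without a call in all of them. Klf16 lost its call without both lincRNA-rich libraries (0.30), against a fold of 1.5 (0.33) and with the local median removed, where it turned to -0.11; with 1 library left out it ranged from 0.28 to 0.37. Values near 0 changed sign: Klf6 to 0.059 without both lincRNA-rich libraries (-0.18 to 0.15 with 1 library left out), Klf7 to 0.0076 with upper-quartile factors, 0.072 without both lincRNA-rich libraries and 0.016 with the chromosome median removed (-0.073 to 0.093), and Klf11 to -0.12 with the chromosome median and -0.19 with the local median removed (-0.017 to 0.19). Klf9 was called lower (-0.23) with the chromosome median removed, and Fbxw7 turned to 0.10 with the local median removed. The number of members called higher was 2, and 1 without both lincRNA-rich libraries, against a fold of 1.5 or with the local median removed, and 1 to 2 with 1 library left out; 1 member was called lower with the chromosome median removed. Over all genes, 700 were called higher and 370 lower against a fold of 1.5, 1545 to 2065 higher and 1314 (without MOSE-PAX8 3) to 1843 lower with 1 library left out, 1869 and 1689 with the chromosome median removed and 1717 and 1587 with the local median removed. The cause of these changes was not tested.

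With the replicate number as a block, Klf4 passed (0.46), so that 3 members were called higher, and 2070 genes were called higher and 1863 lower in all. The labels do not say whether libraries with the same number belong together. MOSE-NEO 1 correlated best with MOSE-PAX8 2 (0.68), and MOSE-NEO 2 also with MOSE-PAX8 2 (0.0761). MOSE-NEO 3 correlated best with MOSE-PAX8 3 (0.504), close to its value with MOSE-PAX8 1 (0.494). With 1 library left out and no block, Klf4 ranged from 0.22 to 0.60.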
